A study of Mus musculus with 8 samples.

Results

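Replication-dependent histone genes supply the core histones H2A, H2B, H3 and H4 and the linker histone H1 during S phase. They were taken as all mouse genes with a curated RefSeq mRNA whose symbol starts with H2ac, H2bc, H3c, H4c or H1f, or whose older symbol in RefSeq starts with Hist1h to Hist4h. This gave 71 of 21000 genes, 67 by their current symbol and 4 by the older symbol only. By class there were 10 H1, 18 H2A, 18 H2B, 12 H3 and 13 H4 genes. Of the 32173 ATAC-seq summits in brown adipose tissue (BAT), 41 lay within 1 kb of the transcription start site (TSS) of at least 1 of these genes.

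The study asked how loss of Dot1l, the enzyme that methylates lysine 79 of histone H3, changes open chromatin in cold-exposed BAT. Dot1L-BKO mice carried floxed Dot1l together with Ucp1-Cre, so that Dot1l was removed in Ucp1+ cells, and the WT controls carried floxed Dot1l without the Cre. BAT also holds cells without Ucp1, in which Dot1l was not targeted. All mice were on chow, 12 weeks old and kept at 4°C for 4 hr, and nuclei of 2 mice per genotype were processed separately.

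ATAC-seq marks open chromatin because the Tn5 transposase inserts adapters where DNA is not wrapped in nucleosomes. The authors deposited 1 list of peak summits, with the −log10 of the MACS2 q-value of each summit, called the score here. The list names the WT libraries against the Dot1L-BKO libraries, and whether 1 genotype served MACS2 as the control for the other is not known here. A score is a significance and no amount of open chromatin, and it may rate reads over background or 1 genotype over the other. A gene without a summit is only a gene without an entry in the list. The list holds no value per mouse or genotype. WT and Dot1L-BKO mice could therefore not be compared at any histone gene, read depth is unknown, and every value that follows describes this list. A summit lay within 1 kb of a TSS at all 10 genes of a list of brown adipocyte and general adipocyte markers. The same held for 1 of 5 endothelial and 1 of 5 macrophage or leukocyte marker genes, and for 45.2% of all genes.

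Histone proteins are needed in bulk only while DNA is copied. Their genes are short, mostly lack introns, lie in clusters and often form H2A-H2B pairs that are transcribed away from each other from a shared promoter. Their mRNAs end in a conserved stem-loop bound by Slbp in place of a poly(A) tail. Npat, at histone locus bodies, drives their transcription in S phase, and most mature brown adipocytes no longer divide.

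The sequences below show the 3 divergent promoters with the highest summits between their TSSs, and the starts of H2A, H3, H4 and H1 genes with a high summit close to the TSS, as the plus strand of RefSeq GRCm38.p6 (mm10) between both TSSs of a divergent pair, or in the direction of transcription for a single gene. Capitals mark the CCAAT box, the TATA box, the octamer, the H1 box and the H4 site on either strand, whose letters follow in the next paragraph. The single-gene stretches run from 120 bases before the TSS to 20 bases after it.
H2bc23-H2ac23, chr13:21810200-21810366: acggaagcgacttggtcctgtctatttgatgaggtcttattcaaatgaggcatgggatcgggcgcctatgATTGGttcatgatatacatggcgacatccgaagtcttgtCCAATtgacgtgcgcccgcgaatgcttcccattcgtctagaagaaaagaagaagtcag
H2ac6-H2bc4, chr13:23683960-23684198: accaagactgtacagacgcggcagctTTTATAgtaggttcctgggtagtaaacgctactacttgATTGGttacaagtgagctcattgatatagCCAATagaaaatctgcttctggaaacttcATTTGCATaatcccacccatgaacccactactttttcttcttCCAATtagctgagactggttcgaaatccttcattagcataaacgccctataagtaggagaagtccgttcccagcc
H2ac24-H4bc24, chr13:21833476-21833742: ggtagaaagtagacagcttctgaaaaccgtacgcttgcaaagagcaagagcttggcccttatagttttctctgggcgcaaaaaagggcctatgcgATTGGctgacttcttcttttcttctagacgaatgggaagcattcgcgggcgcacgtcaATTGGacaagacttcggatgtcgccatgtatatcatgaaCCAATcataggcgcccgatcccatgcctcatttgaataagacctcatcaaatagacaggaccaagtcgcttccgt
H2ac18, chr3:96245377-96245516, plus strand: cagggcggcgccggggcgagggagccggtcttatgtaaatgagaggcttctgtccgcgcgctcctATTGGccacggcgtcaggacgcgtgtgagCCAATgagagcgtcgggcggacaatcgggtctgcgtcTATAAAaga
H3c6, chr13:23562366-23562505, minus strand: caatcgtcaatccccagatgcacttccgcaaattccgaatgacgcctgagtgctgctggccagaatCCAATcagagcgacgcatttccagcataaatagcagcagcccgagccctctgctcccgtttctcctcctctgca
H4c8, chr13:23530924-23531063, plus strand: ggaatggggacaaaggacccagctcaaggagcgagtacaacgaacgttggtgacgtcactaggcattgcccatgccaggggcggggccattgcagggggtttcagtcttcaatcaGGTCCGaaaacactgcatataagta
H1f4, chr13:23622539-23622678, minus strand: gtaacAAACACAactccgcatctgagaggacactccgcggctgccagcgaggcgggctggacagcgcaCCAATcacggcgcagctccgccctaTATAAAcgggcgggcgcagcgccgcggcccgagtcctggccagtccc

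The classes carried different motifs in the stretch from 250 bases before to 50 bases after a TSS. CCAAT, the binding sequence of NF-Y, stood in 18 of 18 H2A, 18 of 18 H2B, 11 of 12 H3, 7 of 10 H1 and 4 of 13 H4 genes, and in 42.5% of all genes. The octamer ATTTGCAT, recognised by Pou2f1, stood in 7 H2A and 9 H2B genes and in no gene of the other classes, and in 1.95% of all genes. GGTCCG, part of the site that Hinfp binds in H4 promoters, stood in 12 of 13 H4 genes, in 1 H1, 1 H2B and 2 H3 genes, and in 12.5% of all genes. The H1 box AAACACA stood in 5 of 10 H1 genes, but also in 2 H2A, 3 H2B and 1 H3 genes, and in 7.25% of all genes. TATAAA stood in 38 of the 71 histone genes and 14.5% of all genes. The motifs overlap in no position of the printed stretches, and a match describes the letters only, with no measure of binding. The median GC content of this stretch was 45.7% for histone genes, 45.5% in the 50 with a summit and 46.3% in the 21 without, against 56.7% for all genes.

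**Figure D1:**
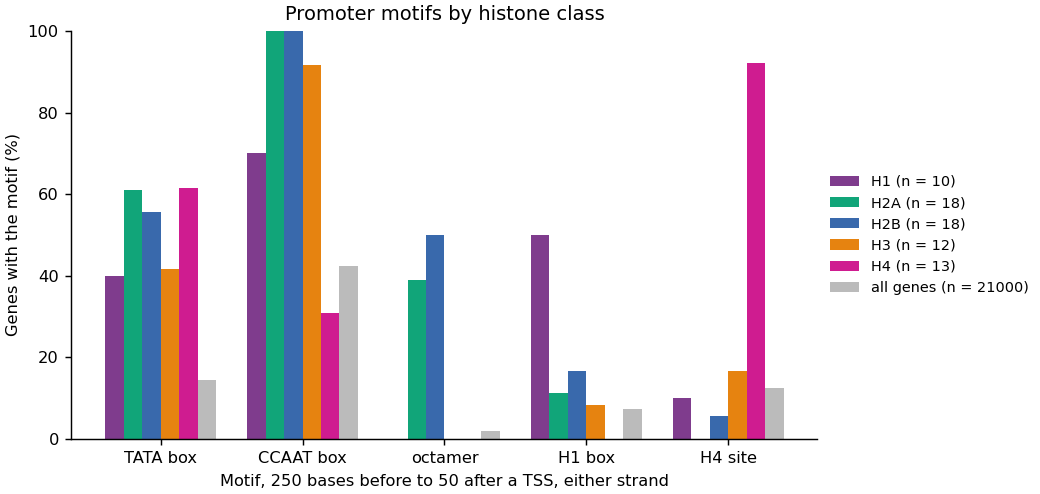
Share of genes (%) in each histone class and of all genes with each promoter motif in 250 bases before to 50 after a TSS. The octamer appears only in the H2A (7 of 18) and H2B (9 of 18) bars and at 1.95% in all genes, and the H4 site reaches 92.3% in H4.

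Of the 71 histone genes, 50 (70.4%, 95% Wilson interval 59.0 to 79.8) had a summit within 1 kb of a TSS, against 45.2% of all genes. The 50 genes rested on 41 distinct summits, because 12 summits each lay near 2 or more histone genes. The order of these shares changed with a limit on repeated sequence. Many core histone genes are near copies of others in their class, and when only summits were kept at which at least 90% of the 50-base words within 100 bp occur once in mm10, 33.8% of histone genes and 43.9% of all genes had a summit. Of the 41 summits, 21 met that limit, against 85.2% of all summits in the list, so this limit took away more of the histone summits while all 71 genes stayed in the count. Beside this, 12 of the 21 histone genes (57.1%) whose own TSS lies in such unique sequence had a summit, and 48.9% of all 18603 genes of that kind. These 12 include H2ac8, H2bc6 and H1f3, whose summits have 0%, 19.1% and 32.9% unique words, so the 57.1% rests in part on summits in repeated sequence. The remaining 20 of the 41 summits lay in sequence that reads of 50 bases cannot always place, and how the authors treated such reads is not given in the sources used here.

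At closer range the shares were nearer to those of all genes. Within 250 bp of a TSS, 35 histone genes (49.3%) had a summit, against 32.9% of all genes, and within 100 bp 18 (25.4%) had one, against 17.9%. A summit with a score of at least 10 lay within 1 kb of 20 histone genes (28.2%, Wilson interval 19.04 to 39.5), against 23.5% of all genes, so that the interval for histone genes held the share of all genes. The intervals cover counting error only and take genes as separate although some share a summit. Histone genes lie close together, and the part of this in their share was not tested. Of 27 histone genes with the TSS of another histone gene within 1 kb, 23 had a summit, and 87.2% of all 2141 genes with another gene's TSS that near had one. Of the 44 histone genes without such a neighbour, 27 had a summit, against 40.4% of all 18859 genes without one.

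**Figure D2:**
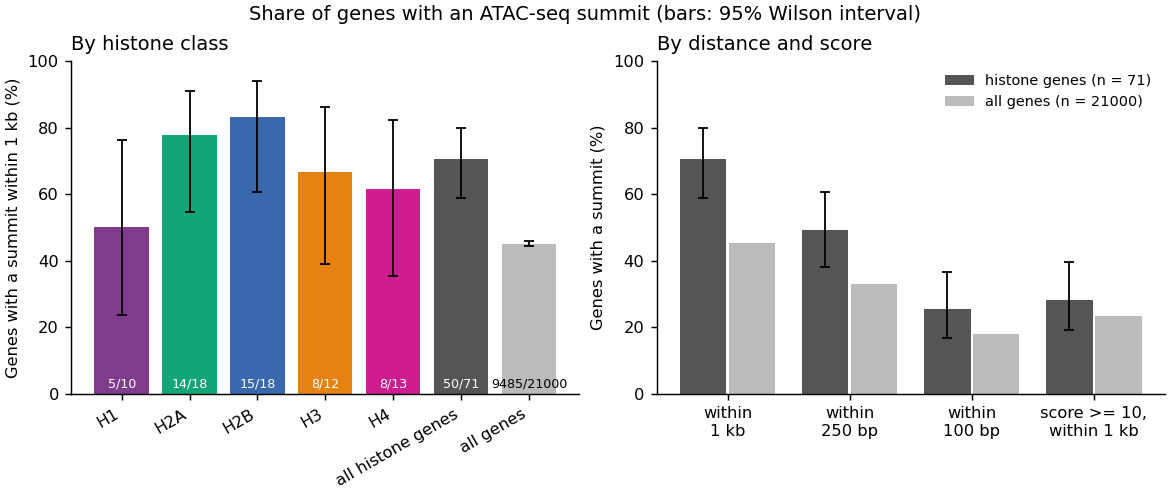
Left, share of genes (%) in each histone class, of all 71 histone genes and of all 21000 genes with a summit within 1 kb of a TSS, with counts in the bars. Right, the share of histone genes (dark) and all genes (light) by distance limit and with a score of at least 10; lines are 95% Wilson intervals, which cover counting error only, and the 70.4% of histone genes stands above the 45.2% of all genes when all summits are used.

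The summits at histone genes had middling scores. The best summit of the 50 genes had a median score of 8.65 (quartiles 6.16 and 13.4, range 1.44 to 37.6), against 10.7 (quartiles 5.55 and 20.9) for the best summit of all 9485 genes that had one, and 5.0 for all summits. Of the 50, 17 reached the median of all genes. The highest stood at rank 1013 of the 32173 summits, so that none was among the first 1000. The median scores of the classes lay between 8.12 for H2B and 8.95 for H4, and their ranges overlapped.

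Of the H2A genes 14 of 18 had a summit and of the H2B genes 15 of 18, and the Wilson intervals of all 5 classes overlapped. The order of the classes rested on shared summits. When each summit was given to its nearest TSS alone, 5 of 10 H1, 7 of 18 H2A, 12 of 18 H2B, 8 of 12 H3 and 8 of 13 H4 genes had one within 1 kb, and H2A had the smallest share. The highest score at any histone gene, 37.6, belonged to H2ac18 (Hist2h2aa1) on chromosome 3, with the summit 116 bp upstream of the TSS, inside the stretch printed above. Its near copy H2ac19 (Hist2h2aa2) followed with 23.8, at 148 bp downstream of the TSS in the coding sequence. Both genes encode a core H2A. Only 4.61% of the words at the H2ac18 summit and 7.89% at the H2ac19 summit occur once in mm10, so reads of one gene and of the other can hardly be told apart. Over 1200 aligned bases around the TSSs the copies share 1192 (99.3%), yet their summits lie 224 bp apart when one copy is laid on the other.

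Next among the H2A genes were H2ac23 (22.5, 85 bp upstream of its TSS) and H2ac6 (16.4, 88 bp upstream), each in a shared promoter with an H2B gene. At the H2ac23 summit 0% of words are unique, and the score cannot be told apart from that of the copy H2ac24, whereas at the H2ac6 summit 100% are. On the other chromosomes, H2aw (Hist3h2a, chromosome 11) had a summit of 9.21 at 27 bp upstream and H2ac21 (Hist2h2ab, chromosome 3) one of 8.65 at 92 bp upstream, both in sequence that is 100% unique. The scores of the remaining 8 H2A genes ran from 1.44 to 11.5. The 4 H2A genes without a summit within 1 kb were H2ac1, H2ac4, H2ac10 and H2ac20.

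Among the H2B genes, H2bc23 (Hist1h2bq) had the highest score, 22.5, from the summit it shares with H2ac23, where 0% of words are unique, so that the score cannot be credited to this gene rather than to its copy H4bc24. H2bc9 (Hist1h2bh) had 18.4 at 5 bp downstream of its TSS and H2bc4 (Hist1h2bc) had 16.4 at 152 bp upstream, both in fully unique sequence. H2bc8 came next with 11.5, but its summit lay 240 bp downstream, in coding sequence where 0% of words are unique. H2bc18, on chromosome 3, had a summit of 8.12 at 144 bp upstream. The scores of the remaining 10 H2B genes ran from 1.44 to 10.9. The 3 H2B genes without a summit were H2bc1, H2bc21 and H2bu2 (Hist3h2ba, chromosome 11), the last of these 5747 bp from the nearest summit, which is that of H2aw.

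Summits stood at 8 of the 12 H3 genes. H3c6 (Hist1h3e) had a score of 17.4 at 8 bp upstream of its TSS, in unique sequence. H3c7 (Hist1h3f) had a summit of 18.4 at 613 bp upstream, which is the one at the TSS of H2bc9, and a second of 10.9 at 443 bp downstream in its own coding sequence. H3c11 (10.9, 36 bp downstream) and H3c1 (9.21, 41 bp downstream) followed, each with the summit at the start of the coding sequence. H3c8 had 5.55 at 427 bp upstream. On chromosome 3 there were 3 H3 genes. H3c13 had a summit of 5.07 exactly at its TSS and one of 8.12 at 902 bp downstream, past its end. H3c14 and H3c15, which share 1661 of 1666 aligned bases (99.7%), had scores of 2.45 and 8.65 at the same base of each copy (an offset of 0 bp), with 0% unique words at both. The H3 genes without a summit were H3c2, H3c3, H3c4 and H3c10.

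H3 carries the residue that Dot1l methylates. All 12 H3 genes encode lysine at position 79, counted without the starting methionine, and all 12 use the codon AAG. The stretch around it, shown because it is the target of the enzyme deleted in these mice, has 2 forms, with the codon for lysine 79 in capitals.
H3c1, H3c2, H3c3, H3c4, H3c6, H3c7, H3c8, H3c10 and H3c11: gcgcaggacttcAAGaccgacctgcgc
H3c13, H3c14 and H3c15: gcgcaggacttcAAGacggacctgcgc
The 12 H3 genes have 11 distinct coding sequences and 2 distinct proteins, and the 13 H4 genes have 12 coding sequences and 1 protein. The other classes vary more, with 9 proteins from 18 H2A genes, 12 from 18 H2B genes and 10 from 10 H1 genes.

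Among H4 genes, 8 had a summit and had it at the TSS or downstream, and none upstream. H4c8 (Hist1h4h) had a score of 23.1 at 68 bp downstream, in its 5′ UTR, and H4c3 (Hist1h4c) 16.7 exactly at its TSS, both in fully unique sequence. H4c4 had 10.4 at 68 bp downstream, with 86.8% unique words. H4c14 on chromosome 3 had 9.78 at 690 bp downstream, past the gene's end, and H4f16 (Hist4h4) on chromosome 6 had 5.55 at 349 bp downstream, in coding sequence. The near copies H4c17 and H4c18 had 6.02 and 8.12, at 0% unique words. The 5 H4 genes without a summit were H4c1, H4c2, H4c9, H4c11 and H4c12.

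**Figure D3:**
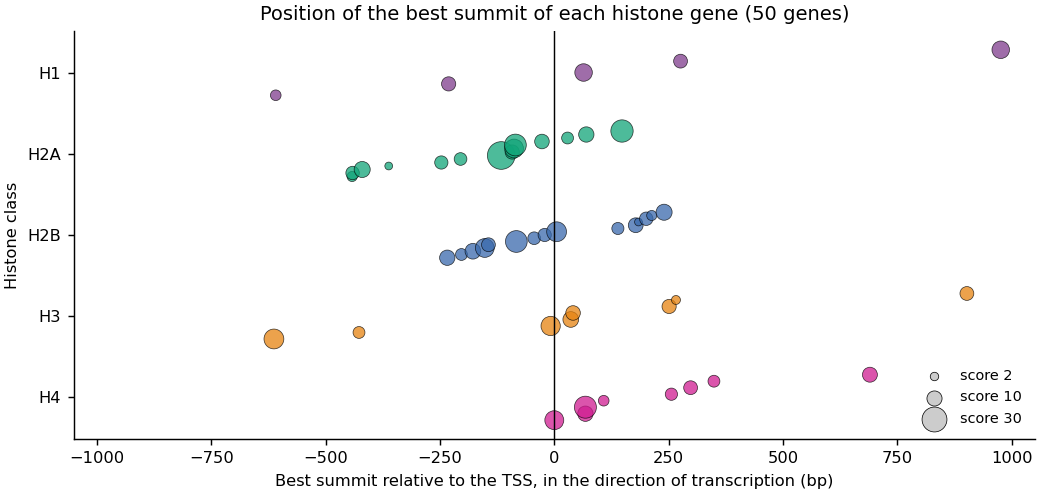
Position of the best summit of each of the 50 histone genes with one, in bp from the TSS along the direction of transcription, by class; the area of a point grows with its score, and points are spread vertically in order of position. All 8 H4 points lie at or right of 0, and 11 of 14 H2A points lie left of it, of which 7 are summits nearer to the TSS of another histone gene.

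Best summits lay upstream of the TSS in 2 of 5 H1, 11 of 14 H2A, 8 of 15 H2B, 3 of 8 H3 and 0 of 8 H4 genes. Part of this came from neighbours, since 7 of the 11 upstream H2A summits lay nearer to the TSS of another histone gene. Among best summits with no other histone TSS nearer, 2 of 5 H1, 4 of 7 H2A, 5 of 12 H2B, 2 of 6 H3 and 0 of 8 H4 lay upstream. Taken over all classes, 52.0% of best summits lay at or downstream of the TSS, against 44.5% for all genes, and the median distance was 181 bp against 151 bp. Histone genes are so short that the 1 kb window holds whole genes, with 64 of 71 spanning under 1000 bp and a median coding length of 393 bp. Of the 41 distinct summits, 19 lay in histone coding sequence, 7 in a 5′ UTR and 15 outside the histone genes. Repeated sequence moved with this position. Of the 15 summits with under 50% unique words, 12 lay in coding sequence, and of the 21 with at least 90%, 3 did. Its part in the positions was not tested.

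**Figure D4:**
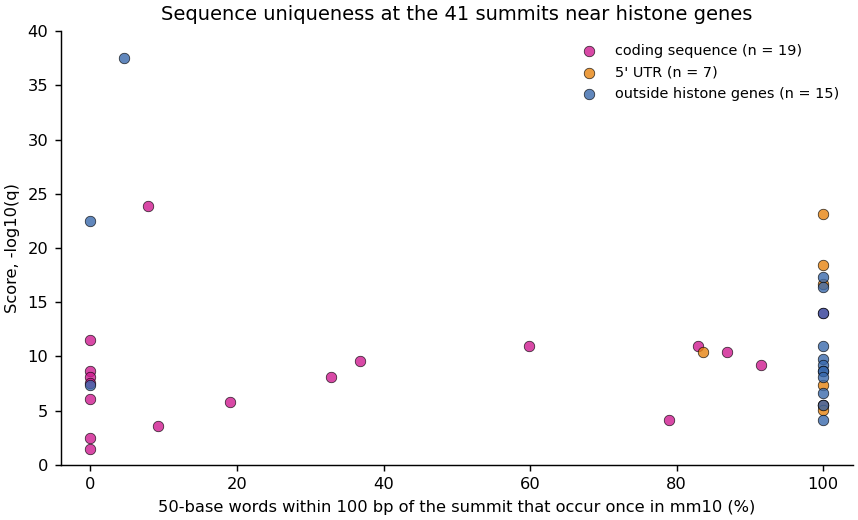
Score of each of the 41 summits near histone genes against the share (%) of 50-base words within 100 bp that occur once in mm10, coloured by place; points at 0 and 100 overlap. The highest score, 37.6, stands at 4.61% unique words, and the 21 summits with at least 90% reach 23.1.

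The linker histones, which bind where DNA enters and leaves the nucleosome, had a summit at 5 of 10 genes. H1f4 (Hist1h1e) and H1f2 (Hist1h1c) both had a score of 14.04, in unique sequence. The H1f4 summit lay 64 bp downstream of its TSS, and the H1f2 summit lay 976 bp downstream, past the end of the gene. H1f0 (chromosome 15), which encodes H1.0, a linker histone made in differentiated cells, had 2 summits, of 8.65 at 231 bp upstream and 7.39 at 488 bp downstream. H1f3 had 8.12 at 276 bp downstream with 32.9% unique words, and H1f10 (chromosome 6) had 4.16 at 609 bp upstream. H1f1, H1f5, H1f6, H1f7 and H1f8 had none.

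Equal scores such as those of H1f2 and H1f4 were common. Of the 41 summits, 20 had a score that another of them also had, so the order of genes with equal scores carries no information.

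Members with a textbook role in the germ line were among those without a summit. H2ac1 and H2bc1 encode the testis histones TH2A and TH2B, H1f6 and H1f7 encode linker histones of the male germ line and H1f8 that of the oocyte. None of these 5 genes had a summit within 1 kb, and 50 of the other 66 (75.8%) did, beside 45.2% of all genes and 48.9% of all genes with at least 90% unique words at the TSS. The nearest summit lay 94256 bp from H2ac1, 94537 bp from H2bc1, 75922 bp from H1f7, 2805 bp from H1f8 and 2647 bp from H1f6. All 5 TSSs lie in sequence with 100% unique words. The group was put together after its values were seen, so the higher share of the other genes follows from that choice, and no test was made. H2ac1 and H2bc1 form a divergent pair with TSSs 281 bp apart, so their values are not separate. Of the 21 genes without a summit within 1 kb, 12 had one within 3 kb and 7 had none within 5 kb. Just past the limit of 1 kb were H3c3 (1035 bp from a summit), H2ac20 (1087 bp) and H4c1 (1096 bp), and just inside it were the H1f2 summit at 976 bp and the H3c13 summit at 902 bp.

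Divergent pairs are the hallmark of H2A and H2B genes. There were 13 pairs of histone genes that face away from each other with their TSSs under 1 kb apart, 12 of H2A with H2B and 1 of H2B with H3, at 164 to 608 bp between the TSSs (median 229 bp). In 11 pairs both genes shared a summit. It lay between the TSSs in 4 pairs and inside 1 of the genes in 7, where scores ran from 1.44 (H2ac12 with H2bc12) to 18.4 (H2bc9 with H3c7). The shared promoter of H2bc23 and H2ac23 had the highest of the 4, a score of 22.5 at position 21810282 of chromosome 13. The promoter of H2ac6 and H2bc4 had 16.4 at position 23684047, and that of H2ac24 and H4bc24 (an H2B gene, older symbol Hist1h2br) had 7.32 at position 21833722. The remaining pair, H2ac11 with H2bc11, had 6.58. The promoter of H2ac6 and H2bc4 is the one among these with fully unique words at its summit that is printed above, and it holds 3 CCAAT matches, the octamer and TATAAA. The pairs without a summit were H2bc1 with H2ac1 and H2ac20 with H2bc21.

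The first and the third of these promoters are copies. Laid against each other in opposite directions, 1951 of 1951 bases around them were identical (100%), and 0% of the words at either summit occur once in mm10. Their scores nevertheless differed, 22.5 against 7.32, and the summits lay 62 bp apart when one copy is laid on the other. Reads of 50 bases from these copies cannot be told apart by sequence, so neither score can be credited to 1 of the copies.

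The clusters held more summits per length than their chromosomes, counted with 1 kb added on each side of a cluster. They were drawn around histone genes and are dense in TSSs, and the part of this in the densities was not tested. On chromosome 3, 10 histone genes within 50.3 kb had 8 summits, which is 153 per Mb against 8.27 for the chromosome. At the summits of H2ac18, H2ac19, H3c14 and H3c15 there, at most 7.89% of words are unique. On chromosome 13, 23 genes within 328 kb had 15 summits (45.5 per Mb) and 31 genes within 404 kb had 19 (46.8 per Mb), against 8.41 for the chromosome. On chromosome 11, 1 summit lay in the 6.28 kb that hold H2aw and H2bu2. Of the 43 summits in the 4 clusters, 37 lay within 1 kb of a histone TSS. The summits elsewhere were 6, all on chromosome 13, with scores of 1.67 to 6.02. Of the 9 other genes inside the clusters, 1 had a summit within 1 kb, Zfp184 (4.16), beside 45.2% of all genes. There was none at Hfe, Pom121l2, Prss16, Slc17a1 to Slc17a4 or Trim38.

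**Figure D5:**
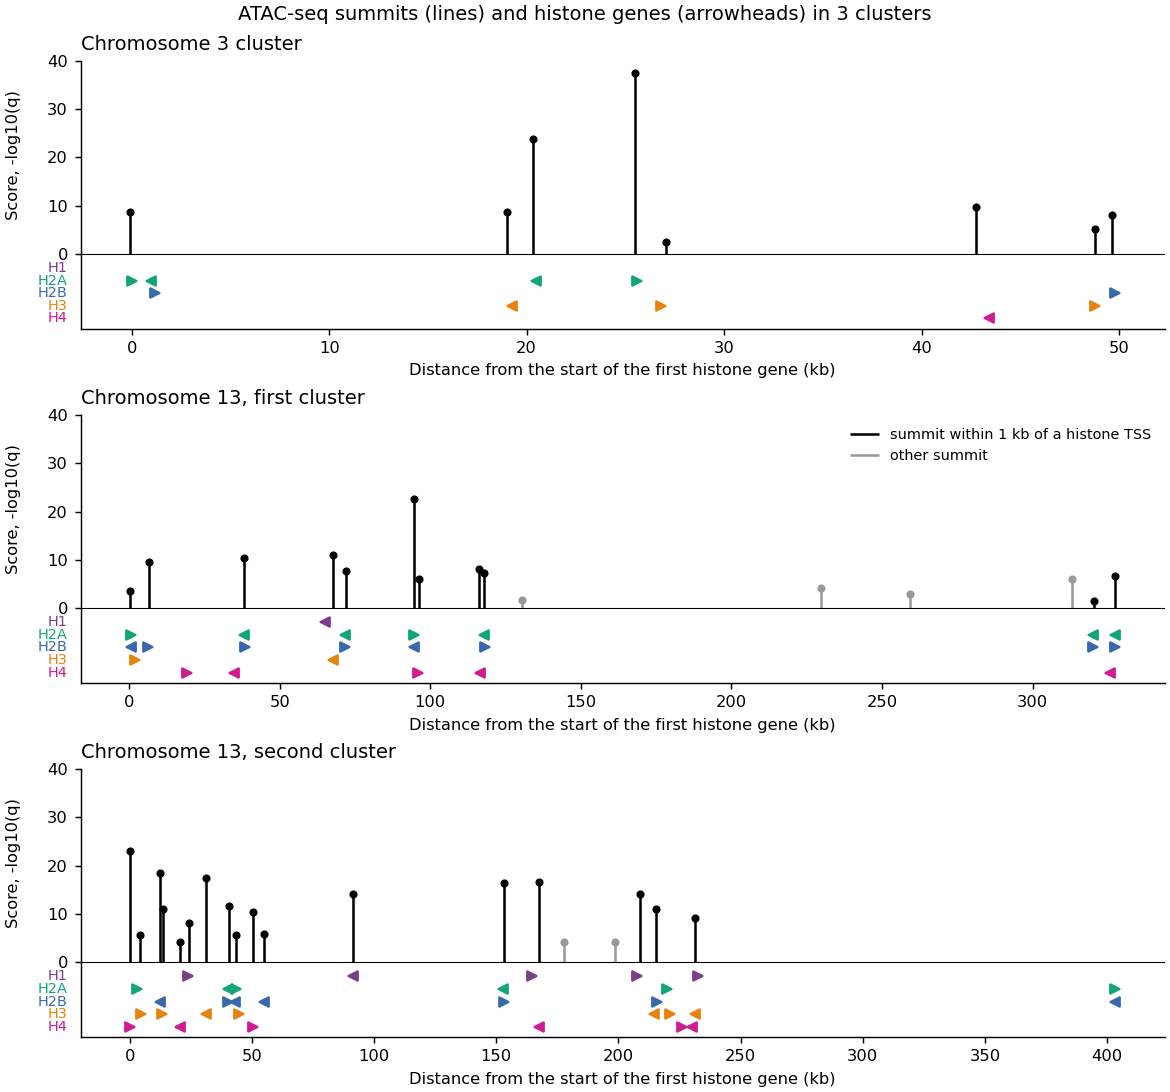
Summits (vertical lines, height is the score) and histone genes (arrowheads at the TSS, pointing in the direction of transcription, a row per class) along the chromosome 3 cluster and both chromosome 13 clusters, in kb from the first histone gene. Of the summits 37 of 43 over all clusters stand within 1 kb of a histone TSS (black) and 6 on chromosome 13 do not (grey), the highest is 37.6 on chromosome 3, and the pair H2bc1 and H2ac1 at the right end of the lowest panel has none.

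In the second chromosome 13 cluster, summits reached 23.1 with a median of 10.9, and in the first 22.5 with a median of 6.58. The high summits of the second cluster, at H4c8 (23.1), H2bc9 (18.4), H3c6 (17.4), H4c3 (16.7) and H2ac6 with H2bc4 (16.4), lie in sequence with 100% unique words.

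The stem-loop at the mRNA 3′ end is a feature of replication-dependent histone genes that the rule did not use. Within 150 bp after the stop codon, 66 of the 71 genes had the 16-base stem-loop with at most 2 mismatches, against 0.376% of all genes. It lay 22 to 59 bp after the stop codon, and it had 9 forms, which differ in the paired bases, in the loop or in both. The 3 commonest were in 41, 9 and 8 genes, and capitals here mark the whole stem-loop.
Form of 41 genes: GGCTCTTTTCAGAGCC
Form of 9 genes: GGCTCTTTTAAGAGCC
Form of 8 genes: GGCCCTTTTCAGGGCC
The 5 genes without it were H1f0, H1f7, H1f8, H1f10 and H2bc21, so that the symbol rule took in H1 genes that lack this mark of replication-dependent mRNAs. Of the 66 with it, 48 had a summit. Another 13 genes had a match, of which H2ax, H3f4 and H2bfm are histone genes and the other 10 are not.

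Summits also stood at most genes that make and handle histone mRNA. Of 18 genes for histone gene expression and histone mRNA processing, 16 had a summit within 1 kb, with a median score of 13.6, beside 45.2% and 10.7 for all genes. The highest were Hinfp (62.5), the H4 gene activator, Slbp (43.7), which binds the stem-loop, and Casp8ap2 (33.3), a part of histone locus bodies, and Eri1 and Srrt had none. Of 16 histone chaperones, 15 had one (median 13.4), led by Hjurp (70.7), which loads Cenpa, Asf1b (56.9), which hands over H3 and H4, and Daxx (42.8), which loads H3.3, and Atrx had none.

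Replication-independent variants, as listed here, had a summit at 8 of 9 genes (median 16.8), beside 45.2% and 10.7 for all genes. The list holds H2ax, which has the stem-loop match given above. The highest were H3f3b (44.6), which encodes H3.3, H2az2 (35.9), an H2A.Z gene, and H2ax (24.6), and Macroh2a2 had none. Of 20 genes of S phase and proliferation 16 had a summit, against 45.2% of all genes, and their median of 10.1 was below the 10.7 of all genes. Scores were highest at Ccna2 (45.5, at 945 bp downstream of its TSS), Cdt1 (37.6) and Mcm4 (37.0), whereas Cdc6, Mki67, Top2a and Tyms had none. The highest histone summit in sequence with at least 90% unique words was that of H4c8, at 23.1, and the 37.6 of H2ac18 stands in sequence with 4.61% unique words. Scores of genes in different sequence were compared as given, and no test was made between lists.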

How the data were processed

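Open chromatin was assayed by ATAC-seq (Nextera kit, paired-end reads of 50 bases) in BAT of 2 WT and 2 Dot1L-BKO mice. Per the labels and the study's methods, the authors trimmed adapters with cutadapt 1.2.1, used BWA within Partek Flow for alignment to mm10, and ran MACS2 2.1.1 in its ATAC mode. Peaks were kept past cutoffs of 0.05 for the q-value and 2.0 for the fold enrichment. The deposited list holds 1 summit for every peak, with the −log10 q-value from MACS2. It names the WT against the Dot1L-BKO libraries, and whether they entered MACS2 as treatment and control is not known here. Scores, which are significances, may therefore not reflect openness alone. Depth is unknown, and no test was made. The RNA-seq libraries were left out.

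Summits were placed relative to TSSs of curated RefSeq mRNAs (GRCm38.p6) on chromosomes 1 to 19, X and Y. The 71 genes have 73 TSSs, of which 67 matched the RefSeq promoter table. Unique words are 50-base words that occur 1 time in the primary assembly on either strand, within 250 bp of a TSS or 100 bp of a summit. Histone genes under 500 kb apart formed a cluster. Assignment of summits was tested on simulated data. Python 3.11.15, pandas 2.3.3, Biopython 1.88 and pysam 0.24.0 were used.

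The members and lists were chosen with earlier results of these data known. Named were the 4 highest scores per class, genes outside chromosome 13, all H1 genes, the 3 divergent pairs with the highest summit between their TSSs, genes without a summit, and, in each list, the 3 highest and those without a summit. H2ac8, H2ac12, H2bc6, H3c3, H3c8, H3c14, H3c15, H4c17, H4c18, H2bc12, the pair H2ac11 with H2bc11 and Zfp184 with the other genes of the clusters were named, where outside this rule, after their values were seen.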

Additional observations from a re-analysis of the deposited data

How the results depend on the processing

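Limits of distance and score moved the values most. With a score of at least 10, 28.2% of histone genes had a summit (2 H1, 6 H2A, 6 H2B, 3 H3 and 3 H4), from 16 distinct summits. The best scores then had a median over genes of 16.4, and the clusters held 16 summits. Within 100 bp the share was 25.4% (1 H1, 6 H2A, 4 H2B, 4 H3 and 3 H4), from 17 summits, and the best scores had a median over genes of 10.7. Within 250 bp it was 49.3% (2 H1, 4 H3 and 4 H4), and within 500 bp 3 H1 genes had one. Within 5 kb it was 90.1% (9 H1, median best score over genes 10.9), against 50.03% of all genes. This share rested on 47 distinct summits, since a window of 5 kb takes in summits of neighbouring histone genes. From 1 kb upstream to 100 bp downstream it was 47.9% (3 H1, 9 H2B, 3 H4), from 27 summits, against 35.2% of all genes. Giving each summit to its nearest TSS alone gave 56.3% within 1 kb with 7 H2A genes, against 41.4% of all genes, and 59.2% with 8 H2A genes at any distance, against 57.9% of all genes. Without the H1f genes outside the clusters, 3 H1 genes had a summit. Of the alternatives chosen after seeing the data, histone genes with at least 90% unique words at the TSS had a share of 57.1% (12 of 21), and summits with at least 90% unique words gave 33.8% from 21 summits, below the 43.9% of all genes. Of these values for histone genes as a whole or by class, 37 moved and 76 did not. A share or median was counted as moved when it left the 95% interval of the main value, and a count only past a set fold change. The 76 therefore include smaller changes, such as 29 distinct summits within 250 bp against 41 within 1 kb.

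No paired analysis was possible because no library has values of its own, which also kept any replicate from being left out. A gene without a summit had none past the authors' cutoffs at an unknown depth.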
